A study of Rattus norvegicus with 170 samples.

Results

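The genes described here are *Myc*, which encodes a transcription factor that drives cell growth, and 9 genes that are known targets of Myc or take part in making ribosomes: *Ncl*, *Npm1*, *Nop56*, *Nop58*, *Fbl*, *Odc1*, *Polr1b*, *Cad* and *Ddx21*. These 10 genes were taken by symbol from the 24113 genes of an RNA-seq table of single rat islet cells, in which each of them is listed as 1 transcript. They were followed in cells with 1000 RPM or more of the insulin gene *Ins1*, called Ins1-high. RPM is the unit the authors deposited, in which a cell's depth is divided out. It is not divided by transcript length, so levels of different genes cannot be compared with each other. The Ins1-high cells were split by *Ccnb1*, the gene of the mitotic cyclin B1, into *Ccnb1*-zero cells without a read, *Ccnb1*-low cells above 0 and under 10 RPM, and *Ccnb1*-high cells with 10 RPM or more.

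The islets came from wild type Sprague Dawley rats (male, age 8 weeks) and were picked by hand. They were cultured for 48 h at 5.5 mM glucose with the vehicle, 0.1% DMSO, or with 3 µM GNF4877, an aminopyrazine that inhibits the kinases Dyrk1a and Gsk3b. After dispersal, cells were captured on Fluidigm C1 chips, amplified and sequenced, which gave 86 DMSO cells and 84 GNF4877 cells. No animal, culture or repeat chip is named for any cell, so a treatment is 1 sample, no test between groups was run, and the effect of a treatment cannot be told apart from that of its chip and lane.

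Among the DMSO cells 78 were Ins1-high, of which 77 were *Ccnb1*-zero and 1 was *Ccnb1*-high. Among the GNF4877 cells 59 were Ins1-high, with 40 *Ccnb1*-zero, 8 *Ccnb1*-low and 11 *Ccnb1*-high cells. In the *Ccnb1*-high GNF4877 class the lowest, median and highest *Ccnb1* were 19.1, 392 and 912 RPM. In the *Ccnb1*-low class they were 0.477, 0.733 and 6.85 RPM, so most of its cells lay near the floor of a single read. Median depth was 1240658 mapped reads in *Ccnb1*-zero DMSO cells, 1381746 in *Ccnb1*-zero GNF4877 cells and 1583250 in *Ccnb1*-high GNF4877 cells. Fewer genes were read in the GNF4877 cells in spite of this depth, with a median of 8932 genes per *Ccnb1*-zero DMSO cell, 6913 per *Ccnb1*-zero GNF4877 cell and 7527 per *Ccnb1*-high GNF4877 cell. Doublets were not removed beyond the authors' inspection of the ports. A second hormone gene (*Gcg*, *Sst* or *Ppy* at 1000 RPM or more) was found in 25 of the DMSO and 4 of the GNF4877 cells kept. In 3 DMSO cells and 1 GNF4877 cell under 50% of the mapped reads lay on listed transcripts.

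The cells were also described by β-cell markers. The 8 β-cell marker genes of the table, led by *Ins1*, summed to a mean of 67039 RPM in *Ccnb1*-zero DMSO cells, 40816 RPM in *Ccnb1*-zero GNF4877 cells and 80270 RPM in *Ccnb1*-high GNF4877 cells. *Ins1* alone gave 43307, 25979 and 46807 RPM of these sums. It was the gene that chose the cells, so the sums are no independent check of the choice. *Mafa*, a β-cell transcription factor, had no read in any Ins1-high GNF4877 cell. It was read among the *Ccnb1*-zero DMSO cells but not in the *Ccnb1*-high DMSO cell. Its mean over all Ins1-high cells was under 1 RPM, so it was near the floor and its absence in GNF4877 says little. *Pdx1*, another β-cell transcription factor, was read in 85.7% of *Ccnb1*-zero DMSO cells, 57.5% of *Ccnb1*-zero GNF4877 cells and 81.8% of *Ccnb1*-high GNF4877 cells.

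Ribosomes are made in the nucleolus, where RNA polymerase I copies the ribosomal DNA and where small nucleolar ribonucleoproteins, helicases and chaperones modify, cut and fold the transcript and add ribosomal proteins to it. Myc, as a dimer with Max, binds the E-box CACGTG and raises the transcription of many of these genes, along with genes of nucleotide and polyamine synthesis, in growing cells. In adult islets β-cells seldom divide, and Myc is known there for driving growth and division and, at high levels, loss of identity.

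Between *Ccnb1*-high and *Ccnb1*-zero GNF4877 cells, which come from the same chip, the set did not move as a block. *Nop56* and *Nop58*, the core proteins of box C/D particles, had higher means in the *Ccnb1*-high cells, by 1.86-fold and 1.89-fold, whereas the nucleolar proteins *Ncl* and *Npm1* had means lower by 1.65-fold and 1.83-fold. *Myc* itself was nearly absent from the *Ccnb1*-high cells. Here and in what follows a ratio is that of mean RPM after adding 1 RPM to each mean. None of the 10 genes was higher by 2-fold or more, against 16% of the 13402 genes with a mean of 1 RPM or more over the Ins1-high cells. The 2 genes lower by 2-fold or more were *Myc* and *Cad*, which is a share near the 23.4% of all genes that were. The median log2 ratio was 0.04 for the set and -0.09 for all genes, and on the difference of mean log2(RPM + 1), described below, it was -0.24 and 0.04, so the place of the set relative to all genes turned with the scale.

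Between *Ccnb1*-zero GNF4877 and *Ccnb1*-zero DMSO cells, *Npm1* and *Nop56* were higher in GNF4877 by 2.58-fold and 2.36-fold, *Ncl* by 1.72-fold, and *Myc* was lower by 2.18-fold. *Npm1* and *Nop56* were thus the 2 of the 10 genes that were 2-fold or more higher, against 9.03% of all genes. *Myc* was the 1 gene that was 2-fold or more lower, against 20.8% of all genes. The median log2 ratio was 0.50 for the set and -0.15 for all genes, and on the difference of mean log2(RPM + 1) it was -0.43 and -0.51, so the sign turned and the set lay close to all genes. This comparison shares the *Ccnb1*-zero GNF4877 cells with the one above, so the ratios of both are not independent.

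A mean over cells weights the cells with most reads of a gene. As another scale, log2(RPM + 1) was averaged per class and the difference taken, and on this scale the median of all genes shifted to 0.04 between the *Ccnb1* classes and to -0.51 between the treatments. Between treatments the difference was 0.97 for *Npm1*, 0.68 for *Nop56* and 0.43 for *Ncl*, so that no gene of the set was 2-fold or more higher on it. Relative to the shift of all genes these are 1.48, 1.19 and 0.93, close to their ratios of means taken relative to all genes (1.51, 1.39 and 0.93). The other members moved less or the other way on it, and their values are given with each gene.

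**Figure D1:**
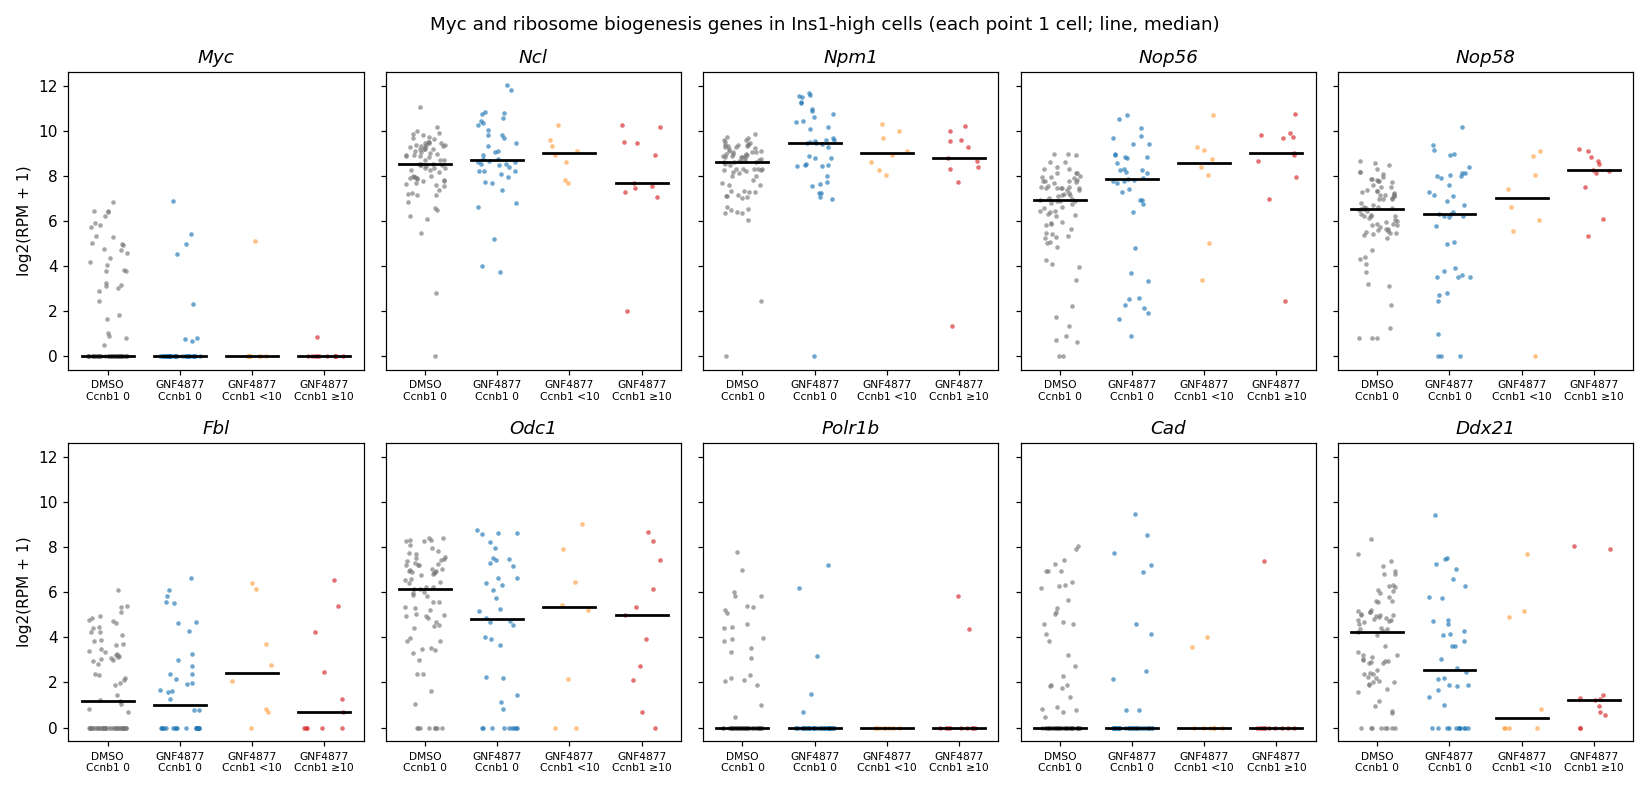
Levels of the 10 genes in Ins1-high cells as log2(RPM + 1) on a linear axis, with 1 panel per gene, 1 point per cell and a black line at the median, for *Ccnb1*-zero DMSO (77 cells) and *Ccnb1*-zero (40), *Ccnb1*-low (8) and *Ccnb1*-high (11) GNF4877 cells; points are spread sideways for display. *Nop56* and *Nop58* have their highest medians in *Ccnb1*-high cells (512 and 307 RPM), *Npm1* in *Ccnb1*-zero GNF4877 cells (707 RPM), and most points of *Myc*, *Polr1b* and *Cad* lie at 0.

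*Myc* was read in few cells, and in fewest among those with *Ccnb1*. Of the *Ccnb1*-zero DMSO cells, 34 of 77 had a *Myc* read (44.2%, exact Clopper-Pearson 95% interval 32.8% to 55.9%), with a median of 0 and a maximum of 114 RPM. Of the *Ccnb1*-zero GNF4877 cells, 8 of 40 did (20%, 9.05% to 35.6%), with a maximum of 116 RPM. Of the *Ccnb1*-high GNF4877 cells, 1 of 11 did (9.09%, 0.230% to 41.3%). These intervals cover the counting of cells only. The cells of a treatment come from 1 sample, so the intervals leave out variation between samples and do not compare treatments. PCR reads without molecular identifiers are also not independent molecules. After thinning to 100000 reads on listed transcripts, which 2 *Ccnb1*-zero DMSO cells and 1 *Ccnb1*-zero GNF4877 cell did not reach, the shares were 23 of 75 (30.7%) in *Ccnb1*-zero DMSO cells, 5 of 39 (12.8%) in *Ccnb1*-zero GNF4877 cells and 0 of 11 in *Ccnb1*-high GNF4877 cells (exact interval up to 28.5%). The order of the shares was thus the same at equal depth.

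The amount of *Myc* followed the same order in these classes. Its mean was 12.9 RPM in *Ccnb1*-zero DMSO cells, 5.39 RPM in *Ccnb1*-zero GNF4877 cells and 0.0741 RPM in *Ccnb1*-high cells. In *Ccnb1*-low cells it was 4.22 RPM, all of it from cell 38, as 1 of 8 cells had a *Myc* read. The whole *Ccnb1*-high class held 1 *Myc* read, in cell 30, against 306 reads in the 40 *Ccnb1*-zero cells. Per mapped read this is a ratio of 0.010, with a counting interval of 0.000253 to 0.0563 that takes the reads as independent. They are PCR reads from 8 *Ccnb1*-zero cells and 1 *Ccnb1*-high cell, so the interval is too narrow. In *Ccnb1*-zero GNF4877 cells 53.6% of the sum came from cell 65, and without that cell the log2 ratio to DMSO was -1.96 in place of -1.12. It was short of 2-fold without DMSO cell 82 (-0.98), with a pseudocount of 10 RPM (-0.57) and with *Ins1* of 10000 RPM or more (-0.68), and on the difference of mean log2(RPM + 1) it was -1.13, or -0.63 relative to all genes. Between the *Ccnb1* classes the log2 ratio was -2.57, and -1.73 without cell 65. It was short of 2-fold in other settings, at -0.58 on the difference of mean log2(RPM + 1), -0.61 with a pseudocount of 10 RPM and -0.65 with any *Ins1*. In DMSO, the only *Ccnb1*-high cell (cell 46) held 9.70 RPM of *Myc*. Among all Ins1-high GNF4877 cells 10 had *Myc* reads and 19 had *Ccnb1* reads, and 2 had both. *Myc* was read in 16.9% of these 59 cells, so few cells with both would be found without any link between the genes. The 2 cells were cell 30, with 1 *Myc* read, and cell 38, with 0.625 RPM of *Ccnb1*. The overlap is therefore not read as the genes excluding each other.

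*Ncl* encodes nucleolin, which binds nascent ribosomal RNA. It was read in all but 1 of the Ins1-high cells. In *Ccnb1*-zero DMSO cells it ranged from 0 to 2144 RPM with a median of 368 RPM, and in *Ccnb1*-zero GNF4877 cells from 12.3 to 4133 RPM with a median of 415 RPM. In *Ccnb1*-high cells it ranged from 3.02 to 1208 RPM with a median of 207 RPM. The ranges overlap throughout: 24 of 40 *Ccnb1*-zero GNF4877 cells lay above the DMSO median and 2 above the DMSO maximum, while 5 of 11 *Ccnb1*-high cells lay above the median of *Ccnb1*-zero GNF4877 cells. The means were 448, 769 and 467 RPM in the same order of classes.

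*Npm1*, the gene of the nucleolar chaperone nucleophosmin, had the most *Ccnb1*-zero GNF4877 cells above the highest *Ccnb1*-zero DMSO cell. Its median was 396 RPM in *Ccnb1*-zero DMSO cells (0 to 931 RPM) and 707 RPM in *Ccnb1*-zero GNF4877 cells (0 to 3248 RPM). Of the latter, 14 of 40 exceeded the highest DMSO cell and 26 exceeded the DMSO median, which for *Nop56* were 7 and 28. In *Ccnb1*-high cells the median was 437 RPM (1.51 to 1178 RPM), and 4 of 11 lay above the median of *Ccnb1*-zero GNF4877 cells. The means were 391, 1009 and 550 RPM. Leaving out any single cell kept the log2 ratio between treatments at 1.28 to 1.40. Without cells holding a second hormone it was 1.24, against 1.37 with them.

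The lower *Ncl* and *Npm1* of *Ccnb1*-high cells rested in part on cell 78 when log values were averaged. This cell held 3.02 RPM of *Ncl*, 1.51 RPM of *Npm1* and 4.54 RPM of *Nop56*, the lowest of its class for each. It also held 184281 RPM of *Ins1*, the highest of all Ins1-high cells, and 4294 genes, the fewest of its class. Without it the difference of mean log2(RPM + 1) between *Ccnb1*-high and *Ccnb1*-zero cells moved from -0.81 to -0.22 for *Ncl* and from -0.83 to -0.13 for *Npm1*. The log2 ratio of means was less affected, with *Npm1* at -0.87 with cell 78 and -0.74 without it. For *Npm1* it passed 2-fold without cell 31, at -1.05, a cell that also held 37011 RPM of *Gcg*.

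*Nop56* encodes a core protein of the box C/D particles that methylate ribosomal RNA, and its median was higher with each class in the order given. The median was 120 RPM in *Ccnb1*-zero DMSO cells (0 to 505 RPM), 228 RPM in *Ccnb1*-zero GNF4877 cells (0.869 to 1671 RPM), 383 RPM in *Ccnb1*-low cells (9.55 to 1644 RPM) and 512 RPM in *Ccnb1*-high cells (4.54 to 1694 RPM). Of the *Ccnb1*-high cells, 6 of 11 exceeded the highest *Ccnb1*-zero DMSO cell, and 9 exceeded the median of *Ccnb1*-zero GNF4877 cells. The classes overlap, because the highest *Ccnb1*-zero GNF4877 cell is close to the highest *Ccnb1*-high one. The means were 144, 341, 488 and 634 RPM. Of the *Ccnb1*-low sum 42.1% came from cell 95, which also held the most *Ccnb1* of that class, 6.85 RPM. The other cells of the class held at most 1.46 RPM of *Ccnb1*, so the order of the classes is not a graded scale of *Ccnb1*. The *Ccnb1*-high DMSO cell held 401 RPM, above the 75th percentile of the *Ccnb1*-zero DMSO cells (213 RPM) and below their maximum.

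*Nop58*, the partner of *Nop56* in the same particles, differed more with *Ccnb1* than with treatment. In *Ccnb1*-high cells it had a median of 307 RPM (39.5 to 582 RPM), and it was read in 11 of 11 cells. In *Ccnb1*-zero cells the medians were 90.9 RPM in DMSO (0.750 to 409 RPM) and 78.7 RPM in GNF4877 (0 to 1159 RPM). Of the *Ccnb1*-high cells, 9 of 11 lay above either of these medians and 3 above the DMSO maximum. The *Ccnb1*-high DMSO cell, at 103 RPM, was close to the DMSO median. The log2 ratio between the *Ccnb1* classes was 0.91, and from 0.79 to 1.15 with single cells left out. On the difference of mean log2(RPM + 1) it was 2.23 for *Nop58* and 1.58 for *Nop56*, so that both passed 2-fold there. Between treatments the direction of *Nop58* turned with the scale, from a log2 ratio of 0.56 to a difference of -0.41. Relative to all genes these are 0.71 and 0.09.

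*Fbl* encodes fibrillarin, the methyltransferase of the box C/D particles, and did not follow its partners. It was read in 54.5% of *Ccnb1*-zero DMSO cells, 55% of *Ccnb1*-zero GNF4877 cells and 54.5% of *Ccnb1*-high cells. At 100000 reads the shares were 28%, 33.3% and 27.3%. The means were 7.55, 10.7 and 14.2 RPM. Of the *Ccnb1*-high sum 58.4% came from cell 36, without which the log2 ratio to *Ccnb1*-zero GNF4877 cells changed from 0.38 to -0.64. Between treatments the log2 ratio was 0.45 and the difference of mean log2(RPM + 1) was -0.04, or 0.46 relative to all genes.

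*Polr1b* encodes the second-largest subunit of RNA polymerase I and was the member read in the fewest cells of *Ccnb1*-zero DMSO. A read was found in 25 of 77 of those cells (32.5%, 22.2% to 44.1%), in 5 of 40 *Ccnb1*-zero GNF4877 cells (12.5%, 4.19% to 26.8%) and in 2 of 11 *Ccnb1*-high cells (18.2%, 2.28% to 51.8%). None of the 8 *Ccnb1*-low cells had one, for which the exact interval runs up to 36.9%. These intervals are over the cells of 1 sample per treatment, so they leave out variation between samples. At 100000 reads the shares were 21.3%, 7.69% and 18.2% in *Ccnb1*-zero DMSO, *Ccnb1*-zero GNF4877 and *Ccnb1*-high cells. The means were 10.6, 5.73 and 6.90 RPM, and those of the GNF4877 classes rest mostly on single cells. *Ccnb1*-zero GNF4877 cell 6 gave 64.1% of the sum of its class and *Ccnb1*-high cell 17 gave 74.1%, against 26.7% for the top *Ccnb1*-zero DMSO cell. Without cell 17 the log2 ratio between the *Ccnb1* classes went from 0.23 to -1.18, and without cell 6 it went to 1.34. Without cell 6 the log2 ratio between treatments went from -0.79 to -1.90. The difference of mean log2(RPM + 1) between treatments was -0.84, or -0.33 relative to all genes.

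*Ddx21*, an RNA helicase that acts on ribosomal DNA transcription and on the early processing of its product, had means that did not reflect most cells. The means were 33.2 RPM in *Ccnb1*-zero DMSO, 45.2 RPM in *Ccnb1*-zero GNF4877 and 46.5 RPM in *Ccnb1*-high cells, while the medians went from 17.7 to 4.79 and 1.31 RPM. A level of 10 RPM or more was reached by 53.2% of the *Ccnb1*-zero DMSO cells, 45% of the *Ccnb1*-zero GNF4877 cells and 2 of 11 *Ccnb1*-high cells. Those *Ccnb1*-high cells were cells 36 and 96, with 261 and 243 RPM, and the other cells of the class held at most 1.72 RPM. The direction therefore turned with the scale, from a log2 ratio of 0.04 to a difference of -0.94 between the *Ccnb1* classes and from 0.43 to -0.67 (-0.16 relative to all genes) between treatments. Without *Ccnb1*-zero GNF4877 cell 21, which held 690 RPM, the log2 ratio between treatments was -0.21, and that between the *Ccnb1* classes was 0.68. Without cell 36 the latter was -0.82.

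*Odc1* encodes ornithine decarboxylase, the rate-limiting enzyme of polyamine synthesis and a classical Myc target. Its means were almost equal, at 95.4 RPM in *Ccnb1*-zero DMSO, 92 RPM in *Ccnb1*-zero GNF4877 and 95.2 RPM in *Ccnb1*-high cells. The medians were 69.9, 26.7 and 30.8 RPM. It was read in 69 of 77, 31 of 40 and 10 of 11 cells in the same order, and in 61 of 75, 26 of 39 and 6 of 11 at 100000 reads. In GNF4877 the gene was thus spread less evenly over cells, with a log2 ratio between treatments of -0.05 and a difference of mean log2(RPM + 1) of -1.0, or -0.49 relative to all genes. Between the *Ccnb1* classes the log2 ratio was 0.05, and -0.52 without cell 36, which gave 39% of the *Ccnb1*-high sum.

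*Cad* encodes the enzyme that carries out the first steps of pyrimidine synthesis. It was read in 33 of 77 *Ccnb1*-zero DMSO cells (42.9%, 31.6% to 54.6%), 11 of 40 *Ccnb1*-zero GNF4877 cells (27.5%, 14.6% to 43.9%) and 1 of 11 *Ccnb1*-high cells (9.09%, 0.230% to 41.3%). At 100000 reads the counts were 20 of 75, 7 of 39 and 1 of 11. The *Ccnb1*-high cell with reads was cell 30, at 165 RPM, the same cell that held the *Myc* read. The mean of *Ccnb1*-zero GNF4877 cells, 40.4 RPM, took 44.3% of its sum from cell 23. Without cell 23 the log2 ratio between treatments went from 0.76 to -0.02, and that between the *Ccnb1* classes from -1.38 to -0.60. The direction between treatments also turned on the difference of mean log2(RPM + 1), at -0.45 (0.05 relative to all genes), and that between *Ccnb1* classes turned when cells with any *Ins1* were taken, at 0.10.

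**Figure D2:**
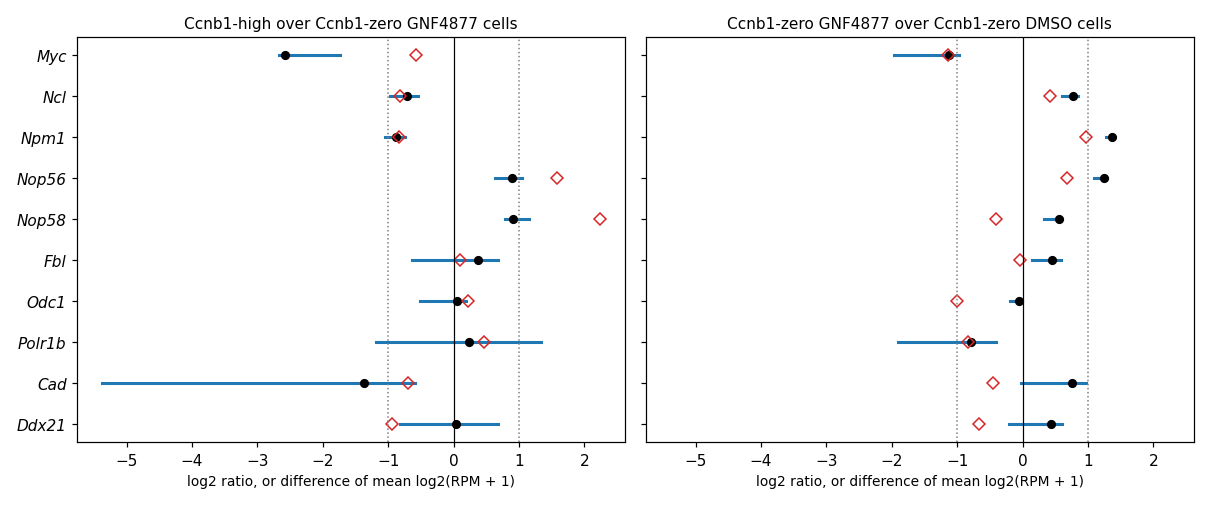
Log2 ratios of mean RPM (black points, 1 RPM added to each mean) and differences of mean log2(RPM + 1) (open red diamonds) of the 10 genes for *Ccnb1*-high over *Ccnb1*-zero GNF4877 cells (left, 11 and 40 cells) and *Ccnb1*-zero GNF4877 over *Ccnb1*-zero DMSO cells (right, 40 and 77 cells); blue lines span the ratios with each cell left out in turn, and dotted lines mark 2-fold. *Nop56*, *Nop58*, *Fbl*, *Odc1* and *Polr1b* lie above 0 on both scales on the left, *Ncl*, *Npm1* and *Nop56* on the right, and the line of *Cad* on the left reaches -5.37, where the *Ccnb1*-high mean is 0.

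Single cells moved the counts of genes past 2-fold. Between the *Ccnb1* classes, *Nop56* passed 2-fold higher without *Ccnb1*-high cell 17 or 78 or *Ccnb1*-zero cell 11 or 18, *Nop58* without *Ccnb1*-high cell 19 or 31 or *Ccnb1*-zero cell 44, 61 or 79, and *Polr1b* without *Ccnb1*-zero cell 6, in each case as the 1 gene that did. The count of genes 2-fold or more lower became 3 without cell 17 (with *Polr1b*) and without cell 31 or 36 (with *Npm1*), and 1 without *Ccnb1*-zero cell 23, when *Cad* no longer passed. The median of the set was -0.73 without cell 36. Between treatments, *Polr1b* joined *Myc* as 2-fold or more lower without GNF4877 cell 6 or 90, and no gene was 2-fold lower without DMSO cell 82, while *Npm1* and *Nop56* stayed 2-fold or more higher in every such case.

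Genes of ribosome synthesis were also taken by lists. The lists hold the members, so their counts and medians are in part those given above: *Npm1* is the 1 gene of the nucleolar chaperones and scaffolds 2-fold or more higher between treatments, and *Nop56* is among the 3 of the box C/D and H/ACA particles. *Odc1*, *Cad* and *Myc* are likewise in the polyamine, nucleotide and Myc network lists. Between the *Ccnb1* classes, the box C/D and H/ACA particle genes, of which 13 of 13 had a mean of 1 RPM or more, had a median log2 ratio of 0.38, with 2 genes 2-fold or more higher and 2 lower. Over all genes the shares past 2-fold were 16% and 23.4%, so these counts are not above them. Next to *Nop58* and *Nop56*, *Dkc1*, the pseudouridine synthase of H/ACA particles, was at 17.3 RPM in *Ccnb1*-high and 8.37 RPM in *Ccnb1*-zero GNF4877 cells. The 9 nucleolar chaperone and scaffold genes had a median of 0.04 and none past 2-fold in either direction. On the difference of mean log2(RPM + 1) the medians were 0.45 for the particle genes and 0.30 for the chaperones and scaffolds, against 0.04 for all genes. Within the chaperone and scaffold list *Tcof1* (28.7 against 17.7 RPM), *Nolc1* (215 against 146 RPM) and *Nop14* (50.2 against 38.2 RPM) were on the higher side, and *Ncl* and *Npm1* on the lower.

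The lists of ribosomal subunit assembly had medians below that of all genes (-0.09) in *Ccnb1*-high cells. Of the 38 genes of the small subunit processome, 2 were 2-fold or more higher and 12 lower, with a median log2 ratio of -0.46, and of the 46 genes of large subunit assembly 7 were higher and 10 lower, with a median of -0.50. Against 16% higher and 23.4% lower over all genes, the large subunit counts are near the shares of all genes in both directions. On the difference of mean log2(RPM + 1) the medians were -0.19 and -0.10, against 0.04 for all genes. *Utp18* (39.9 against 13 RPM) and the acetyltransferase gene *Nat10* (41.9 against 14.8 RPM) were higher, and *Wdr46* (10.9 against 35 RPM) and *Mphosph10* (9.51 against 40.8 RPM) lower. In the large subunit list *Nle1* (53 against 14.5 RPM), *Surf6* (49.2 against 16.3 RPM) and *Pelp1* (18.2 against 6.03 RPM) were higher. *Pes1*, of the PeBoW complex, was at 6.61 against 78.1 RPM, and *Mdn1*, a large ATPase that remodels pre-60S particles, at 4.15 against 46.2 RPM. Of 14 RNA polymerase I genes, 3 were higher and 4 lower, with a median of 0.15, and of 0.27 on the difference of mean log2(RPM + 1). The initiation factor gene *Rrn3* was at 223 against 110 RPM. The polymerase subunit genes *Cd3eap* (20.4 against 41.9 RPM) and *Twistnb* (10.6 against 22.4 RPM) were lower by their means. On the difference of mean log2(RPM + 1) *Rrn3* was at 1.69, *Cd3eap* at -0.08 and *Twistnb* at -0.49, so *Cd3eap* was almost level there.

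Between treatments the medians of these lists lay above that of all genes (-0.15) on the ratio of means. They were 0.45 for the box C/D and H/ACA particles (3 of 13 genes 2-fold or more higher, 0 lower), 0.76 for the nucleolar chaperones and scaffolds (1 of 9 higher, 0 lower), 0.30 for the small subunit processome (4 of 38 higher, 4 lower), 0.28 for large subunit assembly (8 of 46 higher, 1 lower) and 0.16 for RNA polymerase I (0 of 14 higher, 3 lower). Over all genes 9.03% were higher and 20.8% lower, a share that the RNA polymerase I genes on the lower side are close to. On the difference of mean log2(RPM + 1) every one of these medians was below 0, at -0.40, -0.61, -0.70, -0.31 and -0.67, against -0.51 for all genes. Relative to all genes, only the box C/D and H/ACA particles and large subunit assembly lay above on both scales.

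Genes that stood apart between treatments included *Ftsj3*, a methyltransferase of pre-60S particles, with 117 RPM in *Ccnb1*-zero GNF4877 and 33.3 RPM in *Ccnb1*-zero DMSO cells. *Nop2*, an RNA methyltransferase, was at 47.4 against 19.7 RPM, *Rpf1* at 38.3 against 14.1 RPM, and *Gnl3*, the gene of nucleostemin, at 167 against 96.3 RPM. These stood on the higher side on both scales. *Utp3* (76.3 against 33.6 RPM) and *Utp14a* (64.9 against 33.3 RPM) were higher by their means and at -0.29 and -0.52 on the difference of mean log2(RPM + 1), where the median of all genes was -0.51. *Utp18* (13 against 35.2 RPM), *Nol10* (11 against 32.4 RPM) and *Pelp1* (6.03 against 15.4 RPM) were lower in GNF4877 on both. Of the polymerase I factors, *Taf1c* (10.5 against 28.2 RPM) and *Ttf1* (6.99 against 18 RPM) were lower.

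Of the 17 genes of the Myc network in the table, 13 had a mean of 1 RPM or more. The others were *Mycn*, *Mycl1*, *Mlxip* and *Mxd3*. Neither *Mycn* nor *Mycl1*, the paralogs of *Myc*, exceeded a mean of 0.744 RPM in the *Ccnb1*-zero DMSO, *Ccnb1*-zero GNF4877 or *Ccnb1*-high GNF4877 cells. *Max*, the obligate partner, was read in 67.5% of *Ccnb1*-zero DMSO, 40% of *Ccnb1*-zero GNF4877 and 27.3% of *Ccnb1*-high cells, at means of 6.79, 7.74 and 1.59 RPM. *Mnt*, a repressor that competes for Max, was read in 75.3%, 25% and 9.09% of cells, at 29.6, 3.09 and 0.230 RPM. Its log2 ratio between treatments, -2.90, exceeded that of *Myc* in size.

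The further competitors for Max differed in how widely they were read. *Mxd3* had no read in *Ccnb1*-zero cells of either treatment and was read in 18.2% of *Ccnb1*-high cells, at 5.56 RPM. *Mxd4* was at 4.88 RPM in *Ccnb1*-zero DMSO, 2.23 RPM in *Ccnb1*-zero GNF4877 and 9.96 RPM in *Ccnb1*-high cells, and *Mxi1* at 18.8, 20.4 and 1.55 RPM. *Mxd1* was at 3.02, 0.226 and 1.67 RPM. *Mga*, read in 81.8%, 47.5% and 63.6% of the cells of these classes, was at 71.9, 82.4 and 39.8 RPM. The Max-like factor *Mlx* had almost level means of 159, 166 and 139 RPM. Its partner *Mlxipl*, the glucose-responsive factor ChREBP, was at 12.9, 13 and 2.09 RPM. Between treatments several of these genes had higher means and differences of mean log2(RPM + 1) below 0, where the median of all genes was -0.51. The differences of *Mga* (-1.84), *Mlx* (-1.34) and *Max* (-0.61) were below that median, and those of *Mxi1* (-0.28) and *Mlxipl* (-0.31) above it. The direction of *Mlx* turned between the *Ccnb1* classes, from -0.26 to 0.13.

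Among the cofactors, *Trrap*, the scaffold of histone acetyltransferase complexes, was at 27.9, 45.1 and 0.496 RPM in the same order of classes, with a log2 ratio between treatments of 0.67 and a difference of -0.54 on the other scale, close to that of all genes (-0.51). The helicase genes *Ruvbl1* (10.9, 10.5 and 26.5 RPM) and *Ruvbl2* (32.9, 73.6 and 83.2 RPM) were on the higher side in *Ccnb1*-high cells. *Zbtb17*, whose product Miz1 recruits Myc for repression, was at 9.90, 0.768 and 15.7 RPM. Over the 13 genes the median log2 ratio was -1.03 between the *Ccnb1* classes, with 4 higher and 7 lower by 2-fold, and 0.01 between treatments, with 1 higher and 4 lower. For all genes the medians were -0.09 and -0.15, with 16% higher and 23.4% lower in the former comparison and 9.03% and 20.8% in the latter. On the difference of mean log2(RPM + 1) the medians of the list were -0.03 and -0.55, against 0.04 and -0.51 for all genes.

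Lists of metabolism and translation that Myc is known to act on gave no common direction between the *Ccnb1* classes, and medians above that of all genes (-0.15) between treatments. Their counts are to be read against 16% higher and 23.4% lower over all genes between the *Ccnb1* classes, and 9.03% and 20.8% between treatments. Of 13 polyamine genes, 1 was higher and 6 lower by 2-fold in *Ccnb1*-high cells (median -0.09), and 2 were higher and 1 lower in *Ccnb1*-zero GNF4877 cells against DMSO (median 0.01). *Amd1*, which makes the aminopropyl donor, was at 147 RPM in *Ccnb1*-high and 63.6 RPM in *Ccnb1*-zero GNF4877 cells, and *Azin1*, which protects ornithine decarboxylase, at 202 and 108 RPM. The catabolic genes *Sat1* (175 and 521 RPM) and *Paox* (8.89 and 84.0 RPM) were on the lower side. So were the means of *Srm* (19.7 and 52.2 RPM) and *Sms* (3.08 and 7.25 RPM). Their differences of mean log2(RPM + 1) were 0.19 and 0.15. Between treatments *Sms* was at 7.25 RPM in *Ccnb1*-zero GNF4877 and 42.3 RPM in *Ccnb1*-zero DMSO cells. On the difference of mean log2(RPM + 1) the median of the polyamine genes turned to 0.22 between the *Ccnb1* classes (0.04 for all genes). Of 19 nucleotide synthesis genes, 3 were higher and 5 lower (median -0.12) in *Ccnb1*-high cells, and 1 was higher and 1 lower (median 0.34) between treatments. *Gart*, of purine synthesis, stood apart at 184 RPM in *Ccnb1*-high and 23.3 RPM in *Ccnb1*-zero GNF4877 cells, and *Ppat*, the first enzyme of that pathway, was at 99.7 and 43 RPM. *Nme1*, a nucleoside diphosphate kinase gene, was at 174 RPM in *Ccnb1*-zero GNF4877 and 82.5 RPM in *Ccnb1*-zero DMSO cells.

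Of 18 further genes known as targets of Myc, in translation, mitochondria, metabolism and the cell cycle, 2 were higher and 1 lower in *Ccnb1*-high cells (median 0.14), and the same counts were found between treatments (median 0.53). Between treatments the medians on the difference of mean log2(RPM + 1) were -0.42 for the polyamine, -0.45 for the nucleotide and 0.22 for these further genes, against -0.51 for all genes. Between the *Ccnb1* classes those of the nucleotide and the further genes were -0.10 and 0.12. *Eif3b* was at 265 RPM in *Ccnb1*-high and 126 RPM in *Ccnb1*-zero GNF4877 cells, and *Mthfd1*, the 1 gene 2-fold or more lower there, at 24.5 and 97.3 RPM. *Hspd1*, a mitochondrial chaperone gene, was at 769 RPM in *Ccnb1*-zero GNF4877 and 311 RPM in *Ccnb1*-zero DMSO cells. In the same classes *Mthfd1* was at 97.3 and 25.6 RPM, and *Eif2b5*, on the lower side, at 11.1 and 41.3 RPM. For comparison, 16 of 16 cycle genes other than *Ccnb1* were 2-fold or more higher in *Ccnb1*-high cells, with a median log2 ratio of 3.29, led by *Top2a* (865 against 2.94 RPM) and *Rrm2* (391 against 1.86 RPM). The cells were chosen by *Ccnb1*, so this describes the class. Between treatments 9 of the 16 were higher and 0 lower by 2-fold, with a median of 1.19, against 9.03% and 20.8% over all genes. The median was 0.28 on the difference of mean log2(RPM + 1), against -0.51 for all genes.

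Across cells, given as a description over cells that share a chip, *Ncl* and *Npm1* varied together. Their Spearman rho was 0.80 over the 77 *Ccnb1*-zero DMSO cells and 0.77 over the 40 *Ccnb1*-zero GNF4877 cells, the highest of the 45 pairs of members in each class. The median over the pairs was 0.16 and 0.19. *Nop56* and *Nop58* had a rho of 0.16 and 0.09 in the same classes, and of 0.30 over the 59 Ins1-high GNF4877 cells. Over these 59 cells the rho with *Ccnb1* was 0.33 for *Nop56* and 0.35 for *Nop58*, and from -0.15 to 0.08 for the other members. With *Ins1* it was -0.46 for *Ncl* and -0.42 for *Npm1*, and from -0.23 to 0.14 for the other members. *Myc* had a rho of 0.42 with *Npm1* and 0.33 with *Ncl* in these 59 cells.

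Among the 6232 genes read in 50% or more of the Ins1-high GNF4877 cells, those nearest to *Myc* were LOC499207 (rho 0.57), *Rpl3* (0.56), LOC302564 (0.54), RGD1559149 (0.51) and RGD1566229 (0.51), with *Myc* read in only 10 of the 59 cells. Those nearest to the mean log2(RPM + 1) of the other 9 members were LOC364556 (0.70), LOC100363637 (0.69), LOC300303 (0.68), LOC688655 (0.62) and *Gas5* (0.61), a host gene of small nucleolar RNAs.

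Promoter windows of 300 bases, from 250 bases before the gene start to 50 after, were searched for the E-box CACGTG, which reads the same on both strands. RefSeq windows of build GRCr8 were found for 9 of the 10 genes (not for *Myc*), and 1 of them, that of *Fbl*, held the motif. Of all 33469 windows 6.42% held it. These windows were not matched to the lists by expression or base composition, so the counts below do not measure enrichment. In the lists it was found in 12 of 32 windows of the small subunit processome, 13 of 41 of large subunit assembly, 3 of 12 of the box C/D and H/ACA particles, 3 of 10 of the nucleolar chaperones and scaffolds and 1 of 13 of RNA polymerase I. It was in 4 of 15 windows of the Myc network, 4 of 12 of polyamine metabolism, 2 of 17 of nucleotide synthesis and 5 of 17 of the further targets of Myc. For the cycle genes the search is void, because a window was found for only 12 of 16. A match describes the letters and is neither a bound site nor a cause. The windows of *Fbl* and of 5 genes named above are shown as 30 bases, 5′ to 3′ on the strand of the gene, with the E-box in capitals. *Fbl* lies at chr1:92597416-92597445 (plus strand, motif from base 22 after the gene start), *Dkc1* at chrX:157751455-157751484 (plus), *Gnl3* at chr16:6219790-6219819 (minus), *Nop2* at chr4:159618986-159619015 (plus), *Pes1* at chr14:83074284-83074313 (plus) and the first of the matches in *Utp18* at chr10:79335830-79335859 (minus).
Fbl: ggcgcttttttcCACGTGtgaaagcctgag
Dkc1: agcgtcccggcgCACGTGcgggccccaccc
Gnl3: agttccagttcgCACGTGgcgcccgagacg
Nop2: tgaactcttccccaagtgCACGTGgagcgg
Pes1: ccctaagcggggCACGTGcggtaggaagta
Utp18: gtgagtgtcggtCACGTGgttcgaggcagc

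The marker counts below stand against 16% higher and 23.4% lower over all genes between the *Ccnb1* classes (median -0.09) and 9.03% and 20.8% between treatments (median -0.15). Of the β-cell markers, 7 had a mean of 1 RPM or more. Of these, 2 were higher and 0 lower by 2-fold between the *Ccnb1* classes (median 0.52), and between treatments 1 was higher and 3 lower (median -0.74). Markers of other islet cells differed between the groups compared, and whether they are a cause of the results was not tested. *Gcg*, the glucagon gene of α-cells, had a mean of 44631 RPM in *Ccnb1*-zero DMSO, 98.3 RPM in *Ccnb1*-zero GNF4877 and 3434 RPM in *Ccnb1*-high cells, where cell 31 held 37011 RPM. The median sum of the 5 α-cell markers per cell was 109 RPM in *Ccnb1*-zero DMSO and 70.0 RPM in *Ccnb1*-high GNF4877 cells. That of *Ccnb1*-zero GNF4877 cells lay between these medians. The *Gcg* means of *Ccnb1*-zero DMSO and *Ccnb1*-high GNF4877 cells thus did not reflect most cells. The α-cell factor genes *Irx1* and *Irx2* had no read in either of these GNF4877 classes. Without cells holding a second hormone, the log2 ratios between treatments of *Npm1*, *Nop56* and *Myc* were 1.24, 1.19 and -1.21. Those of *Ncl*, *Cad* and *Polr1b* became smaller in size, from 0.78 to 0.54, from 0.76 to 0.46 and from -0.79 to -0.26. The PP-cell marker *Ppy* had means of 2461, 1042 and 7.13 RPM and medians of 2.76, 3.11 and 0.621 RPM in the same order of classes. The δ-cell markers *Sst* and *Hhex* summed to 79.1, 9.56 and 1.12 RPM, with *Hhex* at 0 in *Ccnb1*-high cells. The direction of *Sst* between treatments turned with the scale, from a log2 ratio of -2.92 to a difference of mean log2(RPM + 1) of 0.59.

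Outside the endocrine cells, the 4 mesenchymal markers summed to 92.3 RPM in *Ccnb1*-zero DMSO, led by *Col1a1*, and to 0.300 and 0.324 RPM in *Ccnb1*-zero and *Ccnb1*-high GNF4877 cells, with *Col3a1* at 0 in the latter. The median sum per *Ccnb1*-zero DMSO cell was 0, so most of these cells had no read of these markers. They were at 8491 RPM in the *Ccnb1*-high DMSO cell, whose levels of the 10 genes are therefore those of a cell with mesenchymal as well as *Ins1* transcripts. The 4 immune markers, led by *Cd74*, summed to 11.2, 68.1 and 82.4 RPM, with *Lyz2* at 0 in both GNF4877 classes. The 4 endothelial markers summed to 11.8, 3.23 and 5.02 RPM with *Kdr* at 0 throughout, the 4 duct markers, led by *Krt7*, to 191, 249 and 189 RPM, and the 5 acinar markers to 2.23, 0.0668 and 0.418 RPM. Of 3 duct markers with a mean of 1 RPM or more, 1 was higher and 1 lower in each comparison (median 0.45 between treatments and -0.59 between the *Ccnb1* classes), and no acinar marker reached that mean.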

How the data were processed

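Single cells from DMSO-treated (86) and GNF4877-treated (84) rat islets were analysed. The authors deposited RPM for 27586 transcripts. Their methods name a mouse transcriptome as the target of alignment, although the table names rat RefSeq transcripts. The submitters' processing notes name CASAVA 1.8.2, BWA 0.5.9 and SAMtools 0.1.19; the genome build is not given in the sources used here. The floor of 0.01 (69.7% of values) was set to 0 and transcripts of a symbol were summed. Values up to 20 reads were whole multiples of a step per cell (100% within 0.1 of a step), which gave reads and depth. No count test was run, because each treatment is 1 sample.

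Ratios are log2((mean RPM + 1)/(mean RPM + 1)), over 13402 genes with a mean of 1 RPM or more in Ins1-high cells, and 2-fold was the threshold. Shares have exact Clopper-Pearson intervals (95%), and the ratio of *Myc* reads has the exact interval of its share of the reads of both classes. Thinning drew 100000 reads on listed transcripts and left out 2 *Ccnb1*-zero DMSO cells and 1 *Ccnb1*-zero GNF4877 cell with fewer such reads. The members and the lists were chosen with earlier results of these data known. Named in the text are the 10 genes, the Myc network, in each other list up to 3 genes with the highest and 2 with the lowest ratio per comparison among genes read in 50% or more of the cells of the higher group, and the 5 genes nearest by Spearman rho to *Myc* and to the mean of the others. Between the *Ccnb1* classes *Srm* and *Sms* are named in addition, although they were read in too few cells for this rule. Reading in the higher group favours genes with large ratios, so the named genes of a list are its extremes and do not stand for it. Symbols of lists were matched to promoters through RefSeq synonyms (GRCr8). Marker lists covered endocrine cells (β, α, δ and PP), immune, mesenchymal and endothelial cells, and acinar and duct cells. Lists of genes were the Myc network, RNA polymerase I, box C/D and H/ACA particles, nucleolar chaperones and scaffolds, small subunit processome, large subunit assembly, polyamine metabolism, nucleotide synthesis, further targets of Myc (translation, mitochondria, metabolism and the cell cycle), and cycle genes. The pseudocount, the scale, the *Ins1* and *Ccnb1* thresholds, depth, hormone transcripts, second-hormone cells, the transcript of a symbol, the filter on low values and single cells were varied. The ratio step was tested on simulated cells, and no result given here rests on that test. The scripts ran on Python 3.11.15 with scipy 1.17.1, matplotlib 3.10.9, pandas 2.3.3 and numpy 2.4.6.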

Additional observations from a re-analysis of the deposited data

How the results depend on the processing

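Between the *Ccnb1* classes, the count of genes 2-fold or more higher, 0 as reported, became 2 on the difference of mean log2(RPM + 1), with any *Ins1* and after thinning to 100000 reads. It became 1 with *Ins1* of 10000 RPM or more, *Ccnb1* of 50 RPM or more, RPM taken without hormone transcripts, second-hormone cells left out, and at the highest with single cells left out. The count 2-fold or more lower, 2 as reported, became 1 with a pseudocount of 10 RPM, 3 with *Ccnb1* of 50 RPM or more and without second-hormone cells, 0 on the difference of mean log2(RPM + 1), 0 with any *Ins1*, and 1 to 3 with single cells left out. *Cad* turned to 0.10 with any *Ins1*. The median of the set ranged from -0.73 to 0.20 with single cells left out.

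Between treatments, the count 2-fold or more higher, 2 as reported, became 0 on the difference of mean log2(RPM + 1), 1 with any *Ins1*, 3 with *Ins1* of 10000 RPM or more, and stayed at 2 with each single cell left out. The count lower, 1 as reported, became 0 with a pseudocount of 10 RPM and with *Ins1* of 10000 RPM or more, and 0 to 2 with single cells left out. The median, 0.50, became -0.43 on the difference of mean log2(RPM + 1), against -0.51 for all genes. The cause was not tested in any of these cases. RPM over listed reads, and leaving out cells with under 50% of reads on listed transcripts, both chosen after seeing the data, moved none of the 20 gene ratios by 1.5 times or more. Taking the highest transcript of a symbol could change nothing, as each gene has 1. Of 30 shares of cells with a read, 15 left their exact interval after thinning. No paired analysis was possible because a treatment holds 1 sample and numbers shared by cell names of both treatments name no shared animal.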

Other observations

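Outside the Ins1-high cells, 3 GNF4877 cells reached 10 RPM of *Ccnb1*. Cell 20 held 357885 RPM of *Gcg*, cell 49 held 35288 RPM of *Sst*, and cell 15 held under 1000 RPM of either. *Nop56* was at 481, 736 and 303 RPM in them, and *Nop58* at 198, 533 and 129 RPM. For comparison, the median of the 25 GNF4877 cells that were not Ins1-high was 133 RPM for *Nop56* and 34.6 RPM for *Nop58*. *Myc* had no read in cells 20 and 49 and was at 40.7 RPM in cell 15, which thus held more *Myc* than any *Ccnb1*-high Ins1-high GNF4877 cell (at most 0.815 RPM). *Cad* was at 246 RPM in cell 20 and 113 RPM in cell 15, and had no read in cell 49.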
